A study of Rattus norvegicus with 25 samples.

Results

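A set of 10 genes of the periodontal ligament, of tendon and of the small leucine-rich proteoglycan family was followed in replanted rat molars. They were chosen by gene symbol from the counts of all 25 libraries: Postn, Tgfbi, Dcn, Aspn, Lum, Fmod, Ogn, Scx, Tnmd and Mkx. Of the 10 symbols, 9 were found among the 16881 distinct symbols, each with 1 entry, and all 9 passed the filter on low counts. No row carried the symbol Mkx, a homeobox transcription factor of tendon and ligament, and it was not analysed here.

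The samples were tooth and periodontal ligament of Sprague-Dawley rats whose maxillary first molar had been extracted, kept dry and put back. In the delayed replantation group (DR) the molar was dry for 60 min, and in the immediate replantation group (IR) for 5 min. Both were collected 7 and 3 days after replantation, with 6 libraries in each of the groups DR day 7, IR day 7, DR day 3 and IR day 3. A sample labelled NT, whose treatment and time are both given as control, supplied 1 library, so no p-value is given for comparisons with it. All libraries are labelled postnatal day 21, without saying if the animals were that old at replantation or when tissue was taken. The labels do not say that the libraries of a group came from separate animals, so p-values measure only the spread between these libraries.

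The periodontal ligament suspends the tooth in its socket with bundles of collagen that run from the root cementum into the alveolar bone. Periostin (Postn) is a matricellular protein secreted by its fibroblasts under mechanical load and by fibroblasts in wounds, and Tgfbi encodes a related secreted protein that binds collagen and integrins. Decorin (Dcn), asporin (Aspn), lumican (Lum), fibromodulin (Fmod) and osteoglycin (Ogn) belong to the small leucine-rich proteoglycans, which bind collagen fibrils and set their diameter and spacing. Asporin is abundant in the periodontal ligament, where it restrains mineralization. Scleraxis (Scx) is a basic helix-loop-helix transcription factor of tendon and ligament cells, and tenomodulin (Tnmd) is a membrane glycoprotein of differentiated tendon and ligament cells that depends on it in mouse.

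The stretches around the transcription start of 5 of the genes are shown because these genes carry the results: Postn and Lum, which varied together from library to library; Ogn and Aspn, neighbours in the genome that lay below NT in all 24 replanted libraries; and Tnmd, the one member called in a test. Each runs 5′ to 3′ on the gene's own strand, from 250 bases before the start to 50 after it, as given by RefSeq for the rat build GRCr8. The windows are chr2:140677811-140678110 on the plus strand for Postn, chr7:34245456-34245755 on the plus strand for Lum, chr17:15258946-15259245 on the minus strand for Ogn, chr17:15310420-15310719 on the minus strand for Aspn and chrX:101350182-101350481 on the plus strand for Tnmd. Capitals mark E-boxes, the letters CANNTG (read the same on both strands), a class of site that basic helix-loop-helix factors such as scleraxis bind.
Postn: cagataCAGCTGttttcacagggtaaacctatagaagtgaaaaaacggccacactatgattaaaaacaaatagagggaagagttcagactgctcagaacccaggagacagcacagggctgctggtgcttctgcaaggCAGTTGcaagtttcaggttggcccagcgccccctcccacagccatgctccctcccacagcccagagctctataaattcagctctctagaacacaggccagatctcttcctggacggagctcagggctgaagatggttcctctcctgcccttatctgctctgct
Lum: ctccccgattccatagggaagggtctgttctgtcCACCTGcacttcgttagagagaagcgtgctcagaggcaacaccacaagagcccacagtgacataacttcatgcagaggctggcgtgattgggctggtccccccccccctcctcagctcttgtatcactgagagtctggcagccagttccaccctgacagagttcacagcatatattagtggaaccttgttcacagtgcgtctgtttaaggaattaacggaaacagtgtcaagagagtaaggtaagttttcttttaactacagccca
Ogn: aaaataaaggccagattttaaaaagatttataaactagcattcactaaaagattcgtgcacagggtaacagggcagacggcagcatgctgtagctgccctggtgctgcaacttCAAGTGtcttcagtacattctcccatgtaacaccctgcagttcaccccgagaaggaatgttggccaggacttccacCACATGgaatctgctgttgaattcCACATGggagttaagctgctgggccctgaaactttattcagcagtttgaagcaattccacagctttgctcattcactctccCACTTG
Aspn: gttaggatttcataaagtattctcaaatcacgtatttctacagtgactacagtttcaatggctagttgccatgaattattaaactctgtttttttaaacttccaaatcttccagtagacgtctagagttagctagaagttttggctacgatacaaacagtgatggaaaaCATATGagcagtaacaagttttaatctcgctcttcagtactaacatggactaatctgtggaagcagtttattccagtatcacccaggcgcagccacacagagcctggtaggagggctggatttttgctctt
Tnmd: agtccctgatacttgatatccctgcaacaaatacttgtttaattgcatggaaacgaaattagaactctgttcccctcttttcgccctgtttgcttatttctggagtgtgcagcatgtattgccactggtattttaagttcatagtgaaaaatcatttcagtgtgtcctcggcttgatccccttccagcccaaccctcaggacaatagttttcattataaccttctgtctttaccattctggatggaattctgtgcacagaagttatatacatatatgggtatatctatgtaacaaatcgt
The promoter table held 8 of the 10 symbols. An E-box was found 4 times in the Ogn window, 2 times in Postn and 1 time each in Lum and Aspn, and 0 times in Tnmd, Fmod, Tgfbi and Mkx. The same letters occur in 71.6% of the 27457 promoters of that length. The letters CAGAC, read on both strands as a core site of SMAD proteins, occurred 3 times in Lum, 2 times in Fmod and 1 time each in Postn, Ogn and Mkx, against 50% of all promoters with at least 1 match. TATAAA, also read on both strands, was found in Postn and Ogn, and in 14.3% of all promoters. No E-box overlapped either of the other motifs. In the same gene table Dcn and Lum are adjacent on chromosome 7 and are followed by Kera and Epyc, while Ogn, Omd and Aspn lie in a row on chromosome 17. Both rows are made up of small leucine-rich proteoglycan genes.

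RNA was read with a QuantSeq kit, which sequences near the 3′ end of polyadenylated transcripts, so a count reflects the end of a transcript, whatever its length. Levels are given in CPM, counts scaled to the effective size of each library. The replanted libraries held 5.04 to 8.81 M counts and NT 8.55 M, and ribosomal RNA entries made up 9.81% to 34.1% of a replanted library and 2.93% of NT. An earlier analysis of these data had set apart 6 day 3 libraries by their content of gland genes, and they are called libraries of high gland share here. In DR day 3 replicates 1, 2 and 3 the lipid gland markers took 1.62%, 1.60% and 2.24% of the counts, and in IR day 3 replicate 6 they took 2.65%. In IR day 3 replicates 3 and 4 the nasal and salivary gland markers took 20.5% and 24.02%. Elsewhere the lipid gland markers reached 0.548% and the nasal and salivary ones 8.74%, the last of these in IR day 7 replicate 6. Of the 7 lipid gland markers 6 were found and of the 11 nasal and salivary ones 10. The 7 fibroblast markers were Pdgfra, Pdgfrb, Col1a1, Col1a2, Col3a1, Thy1 and Fap, all found and none at 0 in any group. The collagen genes among them are also in a list tested below, so this share is not separate from those results. The 7 markers took 5.31% to 7.77% of the counts in DR day 7 and 5.28% to 12.8% in IR day 7. They took 0.0849% to 1.39% in the 6 libraries of high gland share, 2.81% to 5.39% in the other 6 day 3 libraries and 18.7% in NT. Osteoblast, odontoblast and leukocyte markers were low in the same 6 libraries. The osteoblast markers took a median of 0.161% there and 0.831% in the other 6 day 3 libraries, the odontoblast and pulp markers 0.0153% and 0.0523%, and the leukocyte markers 0.0350% and 0.760%. The part of these differences in the results below was not tested beyond repeating each result without the 6 libraries.

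Day 7 libraries were set against day 3 libraries to ask how the ligament genes stood later in healing. Tnmd was called higher at day 7 over all 24 libraries, but the call was lost once the 6 of high gland share were dropped. Those 6 libraries held 5 of the 6 lowest Tnmd values. The matrix genes Postn, Lum and Tgfbi were scattered at day 3, with all of their 6 lowest values in the same libraries. In a tissue sample, fewer cells of a type and less RNA per cell cannot be told apart.

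Postn lay between 376 and 852 CPM (median 613) in DR day 7 and between 326 and 957 CPM (median 804) in IR day 7. It ranged from 20.2 to 756 CPM (median 226) in DR day 3 and from 5.21 to 1164 CPM (median 142) in IR day 3, against 2797 CPM in NT. The day 7 libraries therefore sat inside the range of the day 3 libraries, and the lowest 6 of all 24 values were those of the libraries of high gland share. Among the day 3 libraries, the 6 of high gland share had a median of 51.3 CPM and the other 6 a median of 668 CPM. From the lowest group median to the highest, the order was IR day 3, DR day 3, DR day 7, IR day 7 and NT, and the ranges of neighbouring replanted groups overlapped at every step.

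Lumican, which organises collagen fibrils in many connective tissues, had the same shape. Lum ran from 706 to 1695 CPM (median 1075) in DR day 7, from 624 to 1992 CPM (median 1812) in IR day 7, from 61.6 to 1423 CPM (median 464) in DR day 3 and from 14.4 to 1776 CPM (median 229) in IR day 3. Tgfbi ran from 116 to 356 CPM (median 259) in DR day 7, from 65.9 to 425 CPM (median 278) in IR day 7, from 18.9 to 308 CPM (median 73.8) in DR day 3 and from 6.61 to 297 CPM (median 43.8) in IR day 3. For both genes the 6 libraries of high gland share again held the lowest 6 of the 24 values, and the other day 3 libraries overlapped those of day 7. The medians of the 6 libraries and of the other 6 day 3 libraries were 79.3 and 1371 CPM for Lum, and 20.2 and 230 CPM for Tgfbi. Fmod, Dcn and Tnmd had 5 of their 6 lowest values in the libraries of high gland share, and Aspn had 4. How many of all tested genes had their lowest 6 values there was not counted. The separation is thus not shown to be particular to these genes.

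**Figure D1:**
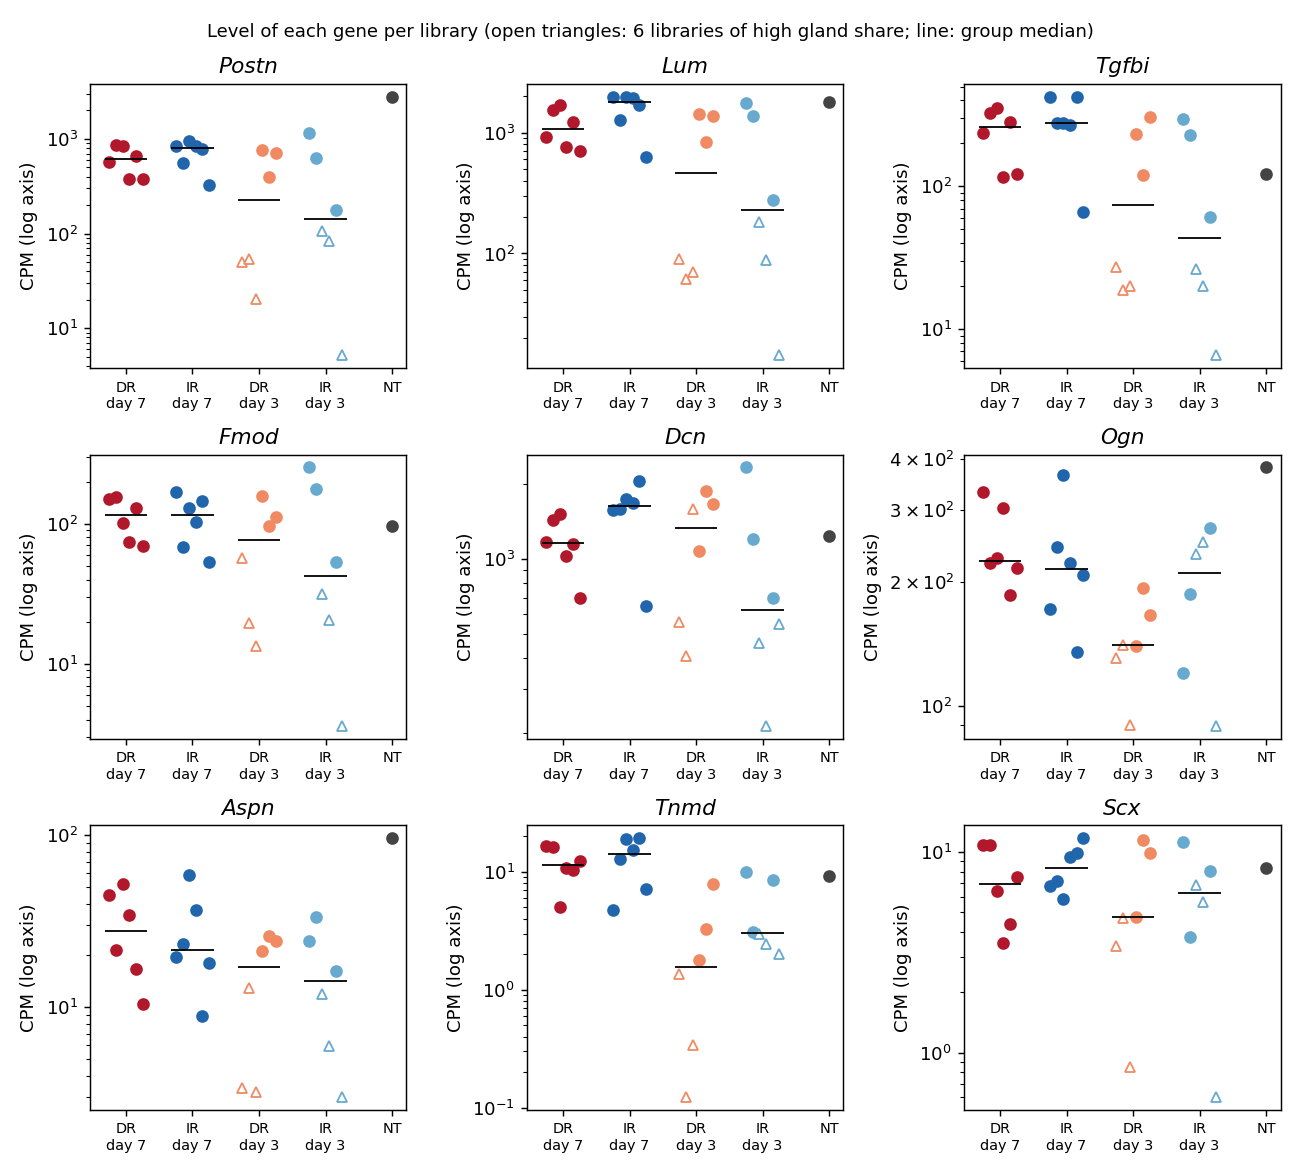
Level of the 9 genes in every library, in CPM on a log axis, by group; the line is the group median and open triangles mark the 6 libraries of high gland share. Postn, Lum and Tgfbi have their 6 lowest values in those libraries, while Ogn and Scx have 3 of their 6 lowest values there.

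The SD of log2 CPM within groups was 0.53 in DR and 0.58 in IR at day 7, and 2.26 in DR and 2.71 in IR at day 3 for Postn (n = 6 each). Over all tested genes the median SD was 0.42 in DR and 0.41 in IR at day 7, and 0.59 in DR and 0.78 in IR at day 3. Lum had SDs of 0.52 in DR and 0.65 in IR at day 7, and 2.22 in DR and 2.57 in IR at day 3. Tgfbi had SDs of 0.71 in DR and 0.99 in IR at day 7, and 1.82 in DR and 2.10 in IR at day 3. Taken over both drying groups, the 6 day 3 libraries without high gland share had SDs of 0.94 for Postn, 0.99 for Lum and 0.91 for Tgfbi. The 12 day 7 libraries had 0.54 for Postn, 0.61 for Lum and 0.83 for Tgfbi. With the 6 libraries left out, the spread of Tgfbi was thus close at the 2 days. Osteoglycin was the steadiest at day 3, with an SD of 0.37 in DR day 3 and 0.64 in IR day 3.

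Tnmd had 16.6, 16.4, 5.07, 10.7, 10.4 and 12.3 CPM in DR day 7 replicates 1 to 6 and 4.75, 12.9, 19.1, 15.4, 19.2 and 7.17 CPM in IR day 7. It had 1.36, 0.124, 0.339, 1.78, 3.30 and 7.90 CPM in DR day 3, and 9.89, 3.08, 2.95, 2.46, 8.49 and 2.004 CPM in IR day 3. The gene is rare, with 46 to 104 counts per library in DR day 7 and 38 to 130 in IR day 7, against 1 to 48 in DR day 3 and 10 to 80 in IR day 3. Every day 7 library lay above 9 of the 12 day 3 libraries, the exceptions being DR day 3 replicate 6 and IR day 3 replicates 1 and 5. With the drying groups pooled, Tnmd was higher at day 7 than at day 3 by 1.85 on the log2 scale (SE 0.443; edgeR quasi-likelihood test, Benjamini-Hochberg adjusted p = 0.0104). It was the only member called, against 18.8% of all 11492 genes called in either direction, 6.94% higher and 11.8% lower. The call held with each of the 24 libraries left out in turn, with changes of 1.73 to 2.26 and adjusted p-values of 0.00404 to 0.0203. Without the 6 libraries of high gland share, 18 libraries remained and the change was 1.18 (SE 0.381, edgeR adjusted p = 0.192), which is no longer a call. Over the other alternatives for Tnmd the adjusted p ran from 0.000329 with DESeq2 to 0.0256 with the replicate number as a block.

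Scx, the transcription factor, was as rare as Tnmd, with 3 to 111 counts per replanted library and 71 in NT. Its levels were 3.51 to 10.9 CPM (median 6.94) in DR day 7, 5.82 to 11.7 CPM (median 8.34) in IR day 7, 0.848 to 11.5 CPM (median 4.72) in DR day 3 and 0.601 to 11.2 CPM (median 6.24) in IR day 3. All 4 groups overlapped, and NT, at 8.37 CPM, lay inside each of their ranges.

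The other 8 genes did not pass the test in the pooled comparison. Ogn came closest, with a log2 change of 0.51 (SE 0.184, edgeR adjusted p = 0.0569). Its levels were 187 to 332 CPM (median 226) in DR day 7, 135 to 365 CPM (median 216) in IR day 7, 90.2 to 194 CPM (median 141) in DR day 3 and 89.6 to 271 CPM (median 211) in IR day 3. The lowest DR day 7 library was thus close to the highest DR day 3 library, while the IR groups overlapped widely. Ogn passed when DR day 3 replicate 5 (0.56, edgeR adjusted p = 0.0440), IR day 3 replicate 5 (0.57, adjusted p = 0.0382) or IR day 7 replicate 5 (0.56, adjusted p = 0.0423) was left out. Tgfbi, at 1.21 (SE 0.552, edgeR adjusted p = 0.118), passed without IR day 3 replicate 1 (1.53, adjusted p = 0.0461).

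The remaining pooled changes were 1.09 for Lum (SE 0.600), 0.94 for Postn (SE 0.597), 0.89 for Aspn (SE 0.413), 0.45 for Fmod (SE 0.475), 0.40 for Scx (SE 0.357) and 0.37 for Dcn (SE 0.315), with edgeR adjusted p-values of 0.126 to 0.521. All 9 values were above 0, with a median of 0.89 against a median of -0.06 over all tested genes. With the 6 libraries of high gland share left out, the median was 0.22 and 6 of 9 were above 0. Postn then stood at 0.08, Lum at 0.22, Tgfbi at 0.37, Aspn at 0.27 and Ogn at 0.41, while Dcn (-0.11), Fmod (-0.29) and Scx (-0.04) were below 0. The test compares fitted means on the count scale, on which the libraries with high counts weigh most, so it gives smaller changes for Postn, Lum and Tgfbi than a difference of mean log2 values does. limma-voom, which works on log values, called 5 members in the same comparison: Postn (2.11), Lum (2.26), Tgfbi (1.98), Tnmd (2.18) and Ogn (0.53). Over all 11492 genes limma-voom called 2256, of which 1462 were higher at day 7.

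**Figure D2:**
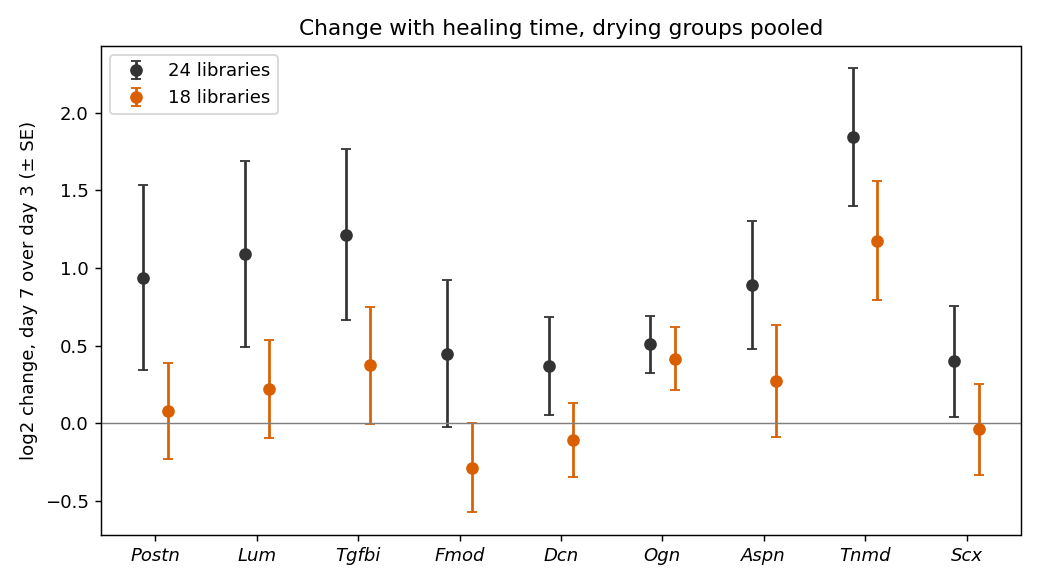
Change with healing time in the pooled drying groups, as log2 fold change of day 7 over day 3 with its SE (edgeR), for all 24 libraries and for the 18 without those of high gland share. Tnmd is highest in both fits (1.85 and 1.18), and Fmod, Dcn and Scx lie below 0 in the fit of 18 libraries.

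Within 1 drying group no member passed. In DR, day 7 over day 3 gave 2.27 for Tnmd (SE 0.639, edgeR adjusted p = 0.0885) and 0.79 for Ogn (SE 0.262, adjusted p = 0.104), and 0.0087% of all genes were called. Tnmd passed in DR when DR day 3 replicate 6 (3.09, edgeR adjusted p = 0.0386) or IR day 3 replicate 6 (2.27, adjusted p = 0.0222) was left out, and Ogn without IR day 3 replicate 6 (0.79, adjusted p = 0.0297). Without IR day 3 replicate 6, 1420 genes in all were called in DR. In IR, Tgfbi stood at 1.44 (SE 0.784), Tnmd at 1.42 (SE 0.615), Lum at 1.36 (SE 0.854) and Postn at 0.99 (SE 0.845), with edgeR adjusted p-values of 0.203 to 0.498, and 0.139% of all genes were called, 0.104% higher and 0.0348% lower.

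Genes that work beside the members were read from 3 lists in the pooled comparison. Of the other small leucine-rich proteoglycans, 6 of 11 could be tested and 1 rose at day 7, Bgn (biglycan, the close relative of decorin), by 1.09 (SE 0.341, edgeR adjusted p = 0.0306). Of 18 collagens and fibril partners, 15 were tested and 5 rose: Col1a2 (1.59, edgeR adjusted p = 0.0131) and Col1a1 (1.54, adjusted p = 0.0279), which encode type I collagen; Loxl1 (0.90, adjusted p = 0.0184), a cross-linking enzyme; Sparc (1.14, adjusted p = 0.0403), a collagen-binding matricellular protein; and Bmp1 (1.09, adjusted p = 0.0431), a procollagen protease. Of 18 genes of TGF-beta signalling and other inputs to scleraxis, 15 were tested and 2 rose: Ltbp3 (0.48, edgeR adjusted p = 0.0155), which holds latent TGF-beta in the matrix, and Smad4 (0.36, adjusted p = 0.0200), the shared SMAD partner. No gene of the 3 lists fell, where 6.94% of all tested genes were called higher and 11.8% lower, and the list medians were 0.55, 0.92 and 0.38. With the 6 libraries of high gland share left out, only Col1a2 of these 8 genes passed (1.004, edgeR adjusted p = 0.0298). With single libraries left out, Sparc passed in 9 of 24 fits, Bmp1 in 7, Bgn in 22 and the other 5 genes in all 24. None of the listed genes passed in the comparisons of drying times or within 1 drying group.

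DR was then set against IR at each day, which is the comparison of 60 with 5 min of drying. No member passed at either day. At day 7 decorin, the small proteoglycan named for its place on collagen fibrils, had 1171, 1439, 1520, 1028, 1155 and 698 CPM in DR replicates 1 to 6 and 1585, 1588, 1743, 1686, 2060 and 649 CPM in IR. All but 1 of the IR libraries lay above every DR library, the exception being IR replicate 6, which was the lowest of the 12. The log2 change of Dcn was -0.41 (SE 0.445), that of Lum -0.47 (SE 0.841) and that of Postn -0.23 (SE 0.837). Fitted on the 12 day 7 libraries alone, the SEs were 0.234 for Dcn, 0.284 for Lum and 0.265 for Postn. The other members lay between -0.27 (Tgfbi) and 0.15 (Ogn), the median was -0.22, and the edgeR adjusted p was 1 for every member. Of all 11492 genes 0.0% were called at day 7, while 206 had an unadjusted p under 0.05 and DESeq2 called 3, none a member.

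At day 3 the drying contrast was read from groups that overlapped over nearly their whole range. Dcn had 409 to 1874 CPM (median 1332) in DR and 213 to 2342 CPM (median 624) in IR. Fmod, which binds and aligns collagen fibrils in tendon and ligament, had 13.4 to 157 CPM (median 76.7) in DR and 3.61 to 252 CPM (median 42.2) in IR. The log2 changes of DR over IR were -0.99 for Tnmd (SE 0.627), -0.42 for Ogn (SE 0.261) and 0.39 for Dcn (SE 0.445), and between -0.24 (Fmod) and 0.18 (Tgfbi) for the other 6. Adjusted p-values of edgeR ran from 0.983 to 0.997, 0.0% of all genes were called, 313 had an unadjusted p under 0.05, and DESeq2 called 0. Without IR day 3 replicate 6 edgeR called 576 genes, 526 of them higher in DR, and none a member. The difference between the drying effects (day 7 less day 3) ranged from -0.80 (Dcn, SE 0.630) to 0.86 (Tnmd, SE 0.863) with 0 members and 0.0% of all genes called by edgeR, 346 genes at an unadjusted p under 0.05 and 11 genes called by DESeq2, none a member.

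Replanted groups were also set against the single NT library. Postn, Aspn and Ogn were lower in all 24 replanted libraries than in NT, against 9.1% of all 11492 genes, and no member was higher in all 24, against 6.06%. Postn was highest in IR day 3 replicate 1 at 1164 CPM, which is still below its 2797 CPM in NT (exact binomial interval at 95% of 2761 to 2832, from 23725 counts and for counting error only). On the scale of log2 of group mean over NT with 5 CPM added to each, Postn stood at -2.18 in DR and -1.96 in IR at day 7, and -3.06 in DR and -2.94 in IR at day 3. With the 6 libraries of high gland share left out, the day 3 values were -2.16 in DR and -2.08 in IR, close to those of day 7.

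Asporin was next in order. Aspn had 10.5 to 52.4 CPM (median 27.9) in DR day 7, 8.86 to 58.9 CPM (median 21.5) in IR day 7, 3.22 to 25.8 CPM (median 17.1) in DR day 3 and 3.01 to 33.5 CPM (median 14.1) in IR day 3, against 95.9 CPM in NT. Its ratios to NT were -1.52 in DR and -1.63 in IR at day 7, and -2.32 in DR and -2.28 in IR at day 3, and -1.81 in DR day 3 and -1.76 in IR day 3 without the 6 libraries. Its neighbour Ogn, at 380.5 CPM in NT, stood at -0.60 in DR and -0.75 in IR at day 7, and -1.37 in DR and -0.97 in IR at day 3.

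The other members did not share that position. Tgfbi, at 123 CPM in NT, stood at 0.94 in DR and 1.21 in IR at day 7, and -0.02 in DR and -0.20 in IR at day 3. Lum, at 1780 CPM in NT, stood at -0.64 in DR and -0.17 in IR at day 7, and -1.46 in DR and -1.52 in IR at day 3, and at -0.55 in DR day 3 and -0.64 in IR day 3 without the 6 libraries. With the 6 libraries left out, Tgfbi stood at 0.82 in DR and 0.65 in IR at day 3, Fmod at 0.32 and 0.71, and Dcn at 0.31 and 0.19. Over the 4 groups with all libraries, Dcn ran from -0.44 to 0.33, Fmod from -0.33 to 0.22, Scx from -0.30 to 0.01 and Tnmd from -0.93 to 0.35. More than 1 log2 unit below NT were 2 of 9 members for DR (3.57% of all genes) and 2 for IR (2.82%) at day 7, and 4 for DR (6.2%) and 3 for IR (4.86%) at day 3. With the 6 libraries left out, those below at day 3 were Postn and Aspn in both groups and Ogn in DR. More than 1 unit above NT were 0 members for DR (6.47% of all genes) and 1 for IR, Tgfbi (4.79%), at day 7, and 0 for DR (10.2%) and 0 for IR (10.1%) at day 3. The members' median was -0.13 in DR and 0.01 in IR at day 7, and -0.93 in DR and -0.53 in IR at day 3, with 0.04, 0.03, 0.09 and 0.10 over all genes. NT also differed from the replanted libraries in fibroblast markers and ribosomal RNA as given above. Osteoblast markers took at most 1.36% of the counts of a replanted library and 1.92% in NT, and odontoblast and pulp markers at most 0.0952% and 0.182% in NT. The part of these differences in the ratios was not tested.

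**Figure D3:**
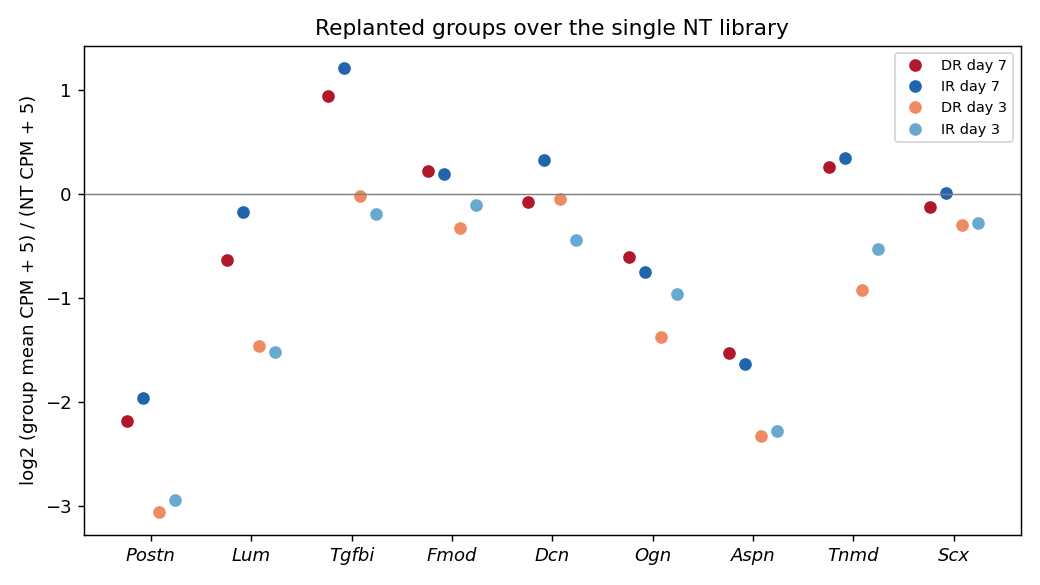
Group mean over the single NT library for the 9 genes, as log2 of CPM with 5 CPM added to each, with no error because NT is 1 library. Postn and Aspn lie below -1.5 in all 4 groups, Ogn between -1.37 and -0.60, and Tgfbi at 0.94 and 1.21 in the day 7 groups.

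Within groups some of the 9 genes moved together from library to library. Correlations were taken over deviations of log2 CPM from the group mean, so they describe how libraries of a group differ, and points share a library with its depth and tissue content. Among Postn, Lum, Tgfbi, Fmod and Dcn the 10 pairs had a median Pearson r of 0.932 (0.570 to 0.981) over 24 libraries, 0.859 (0.704 to 0.981) over the 18 without high gland share and 0.891 (0.727 to 0.981) over the 12 of day 7. These 5 genes were not a set defined in the design, so their high r describes the grouping and does not test it. No r was taken for pairs drawn from all genes. The libraries kept still differed in gland content. Nasal and salivary gland markers took 8.74% in IR day 7 replicate 6, the lowest of its group for all 5 genes. They took 5.80% in IR day 3 replicate 5, the lowest kept day 3 library for all 5. DR day 3 replicate 4, at 5.08%, was instead the highest of its group for Postn, Lum and Fmod. The part of tissue content in these r values was not tested. The closest pair was Postn and Lum, with an r of 0.98 over the 24 and over the 12 libraries. Ogn and Aspn, the chromosome 17 neighbours, had an r of 0.59 over 24 libraries, 0.58 over 18 and 0.80 over the 12 of day 7. Ogn stood apart from Postn, Lum, Tgfbi, Fmod and Dcn. Its r against these 5 genes was -0.19 to 0.34 over 24 libraries and -0.46 to -0.28 over 18. Over the 12 of day 7 it was -0.25 to -0.04, so the sign depended on the libraries kept. Scx and Tnmd, the transcription factor and the gene that depends on it in mouse, had an r of 0.59 over 24 libraries, 0.48 over 18 and 0.23 over the 12 of day 7. Across all 36 pairs the median r was 0.608 over 24 libraries and 0.179 over 18.

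**Figure D4:**
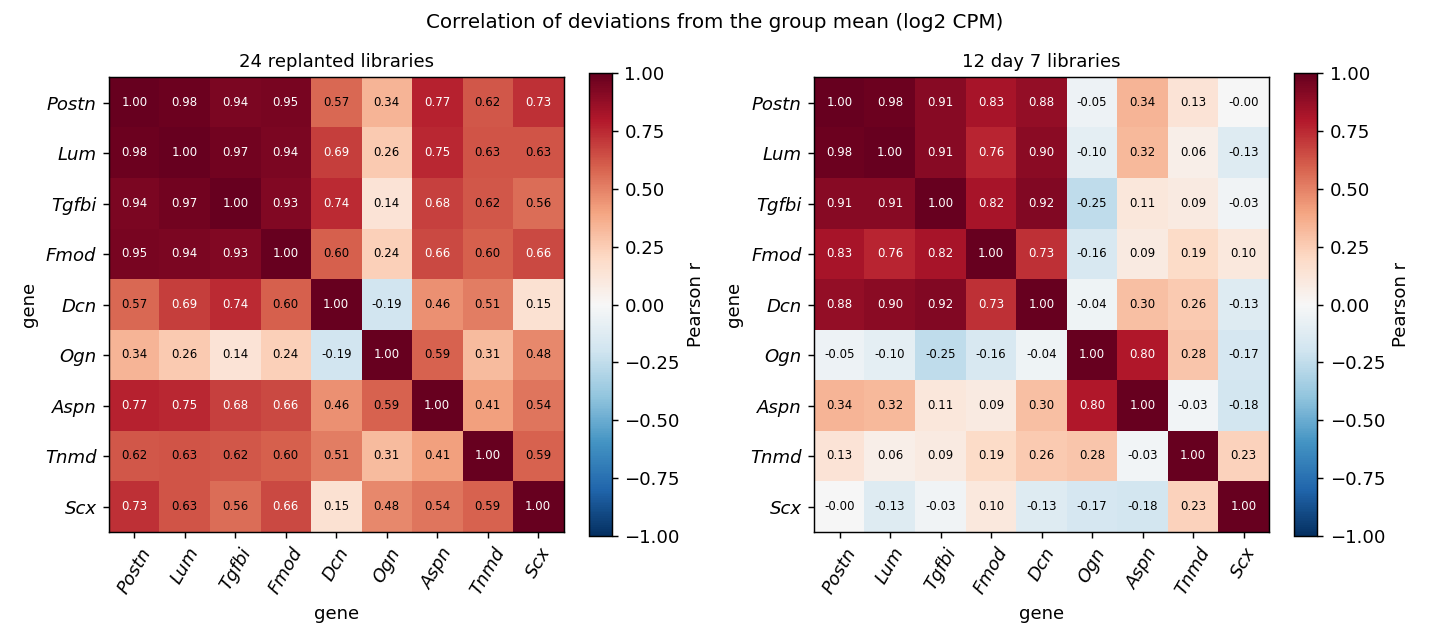
Pearson r between genes, for log2 CPM deviations from the group mean, over the 24 replanted libraries and over the 12 of day 7; red is positive and blue negative. Postn, Lum, Tgfbi, Fmod and Dcn stay a block of high r at day 7 (0.73 to 0.98), while Ogn pairs with Aspn at 0.80. Gland content still differed between the day 7 libraries, and its part in r was not tested.

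The genes outside the list whose pattern was most like the mean of the 9 members were Thbs2 (r = 0.979 over the 24 libraries), Tnn (0.972), Emp1 (0.970), Ndrg1 (0.970) and Serpinh1 (0.969). Over the 18 libraries without high gland share their r values were 0.916 for Thbs2, 0.860 for Tnn, 0.925 for Emp1, 0.881 for Ndrg1 and 0.837 for Serpinh1. Over all tested genes, r with the mean over 24 libraries ran from -0.77 to 0.85 between the percentiles 5 and 95. No such range was taken over 18. The members, which enter the mean, followed it unequally. Over 24 libraries their r ran from 0.444 (Ogn) to 0.965 (Postn). Over 18 it was -0.082 for Ogn, 0.201 for Scx, 0.375 for Tnmd and 0.515 for Aspn. For Postn, Lum, Tgfbi, Fmod and Dcn it was 0.776 to 0.882, so the mean mostly describes these.

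Ratios of counts between members of the same library do not depend on its depth. The adjacent genes Dcn and Lum had a ratio of 0.804 to 1.34 (median 0.965) over the 12 day 7 libraries. At day 3 it was 2.42 to 38.0 (median 6.42) in the 6 libraries of high gland share and 0.756 to 2.54 (median 1.26) in the other 6, so Lum was low relative to Dcn in the libraries of high gland share and in IR day 3 replicate 5 (2.54) and DR day 3 replicate 5 (2.24). In NT it was 0.695. The highest ratios were 38.0 in IR day 3 replicate 6 and 22.5 in DR day 3 replicate 3. Lum to Postn was 1.05 to 3.50 in all 24 replanted libraries and 0.636 in NT. Postn to Tgfbi was 0.788 to 4.95 in the replanted libraries and 22.8 in NT, and Ogn to Aspn 4.38 to 42.5 and 3.97 in NT. For each of these 4 ratios NT lay outside the range of the 24 replanted libraries. The 4 were picked from the 36 pairs of members, and ratios of the other pairs were not taken. Postn, Aspn and Ogn, which enter some of them, were themselves below NT in all 24.

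**Figure D5:**
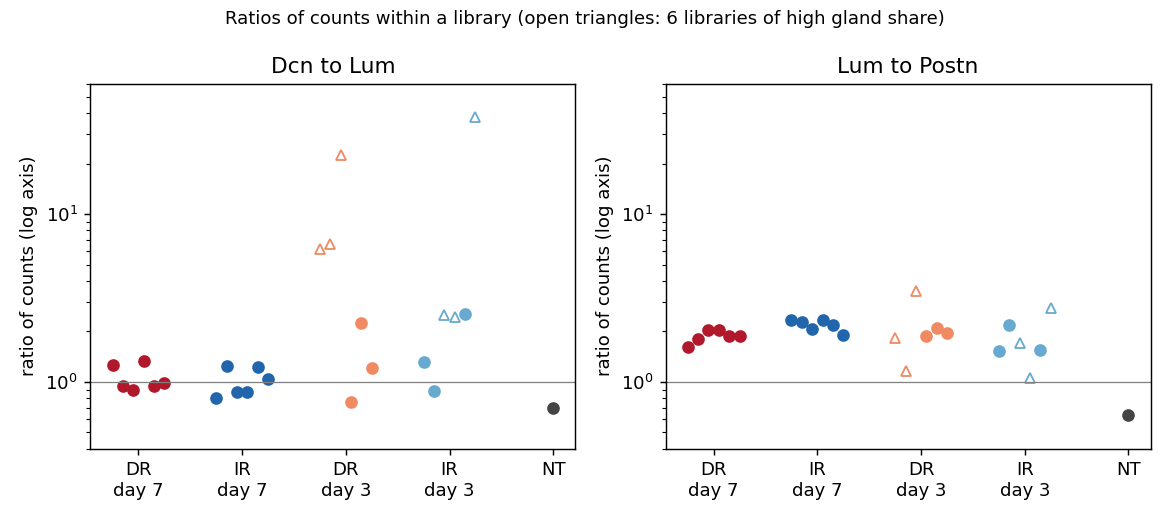
Ratio of counts of Dcn to Lum and of Lum to Postn in every library, on log axes, by group; open triangles mark the 6 libraries of high gland share. Dcn to Lum is 0.804 to 1.34 at day 7 and reaches 38.0 at day 3, and Lum to Postn is above 1 in all 24 replanted libraries and 0.636 in NT.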

How the data were processed

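Whole-number read counts per gene symbol, not normalised, were deposited as 1 file per library with 17048 entries each. Per the labels' protocols, Trizol-extracted total RNA went into Lexogen QuantSeq libraries. The submitters' processing notes list Bowtie2, edgeR, mm10 and rn6. The role of each build, the counter, the annotation and the strand setting were not given in the sources used here, so reads of overlapping or near-identical genes cannot be told apart. For the 149 symbols with more than 1 entry, the entry of highest total was kept; no member was among them.

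In R 4.3.3, edgeR 4.0.16 (TMM scaling, filterByExpr, robust quasi-likelihood fit with 4 group means, 20 residual degrees of freedom) was run on the 24 replanted libraries and 11492 genes, checked on simulated counts. Calls are at a Benjamini-Hochberg adjusted p under 0.05. Levels are CPM, or log2 CPM with a prior count of 2, scaled by TMM over all 25 libraries. Intervals cover counting error only. Alternatives used limma 3.58.1, DESeq2 1.42.0, other scalings and left-out libraries. Members, lists and the 6 libraries of high gland share were chosen with earlier results of these data known. Named genes outside the members are those of the 3 lists that passed, up to 6 a list by smallest p, and the 5 most like the members' mean at an average log2 CPM of at least 3.

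Replicate numbers are shared between DR and IR. At day 7 the deviations of same-numbered DR and IR libraries correlated in all 6 pairs (r of 0.214 to 0.721), above the limit of 0.1 set for pairing. At day 3 they did not (r of -0.415 to 0.214), nor between days (-0.494 to 0.337). Even at day 7, DR replicates 2, 3 and 4 correlated more with an IR library of another number. For DR replicate 4 the r was 0.450 with IR replicate 6 and 0.214 with IR replicate 4. The labels do not say what the numbers mark, so fits that pair by number rest on an assumption.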

Additional observations from a re-analysis of the deposited data

Results flagged for a closer look

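Of the 36 sets of 6 libraries (9 genes in 4 groups), 2 held a library apart from the rest, where chance gives about 1 in 20. In IR day 7 replicate 6, Dcn was at 9.34 log2 CPM (649 CPM), and the gap to its nearest neighbour took 0.773 of the group's range, above Dixon's 95% critical value for 6 libraries. In the same library Tgfbi was at 6.05 log2 CPM (65.9 CPM), with a gap of 0.752 of the range. That library also had the highest share of nasal and salivary gland markers among the day 7 libraries, 8.74% of its counts. DR day 7 replicate 6, with a share of 6.87%, was the lowest of its group for Dcn and Lum, but the gaps did not pass the limit. For Tgfbi the lowest of that group was replicate 4, at 116 CPM against 122 CPM in replicate 6. The part of gland content in these values was not tested.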

How the results depend on the processing

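Counts of members called stayed within 1.5 times the reported count under the alternatives tried, except as follows; the cause was not tested. For day 7 over day 3 pooled, where 1 member was called, DESeq2 called 2, limma-voom 5, limma-voom with sample quality weights 7 and the fit without the 6 libraries of high gland share 0, with 1 to 2 when single libraries were left out. Over all genes, edgeR called 2156 there, against 3039 with DESeq2, 2256 with limma-voom, 5790 with quality weights and 51 without the 6 libraries. With single libraries left out the count ran from 1371 (without DR day 3 replicate 3) to 2916 (without IR day 3 replicate 2). Counts over all genes also moved elsewhere: in IR over time 16 with edgeR, 748 with DESeq2, 9 with limma-voom, 4493 with quality weights, 1 without the 6 libraries and 0 with IR libraries alone; in DR over time 1 with edgeR, 1064 with DESeq2, 3928 with quality weights and 704 with DR libraries alone. With single libraries left out, these ran from 0 to 402 in IR (highest without IR day 3 replicate 1) and from 0 to 1420 in DR (highest without IR day 3 replicate 6), and DR against IR at day 3 from 0 to 576 (highest without IR day 3 replicate 6). For the drying contrasts quality weights called 1533 genes at day 3 and 771 for the difference between days. For members in IR over time, where 0 were called, quality weights gave 6. In DR over time, where 0 were called, DESeq2 gave 2, quality weights 6, the fit of DR libraries alone 1, and leaving out single libraries 0 to 2. Against NT, 5 members lay more than 1 log2 unit below in IR day 3 by group medians, where 3 did by means. The median r over all pairs was 0.179 without the 6 libraries and 0.163 over day 7 alone, a choice made after seeing the data, against 0.608.

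Values not past the threshold changed sign as follows, as log2 changes. For DR over IR at day 3, Postn was 0.10 with limma-voom, Fmod 0.24 with limma-voom and 0.39 with quality weights, and Scx 0.16 without the 6 libraries. For DR over IR at day 7, Fmod was -0.0089 with ribosomal RNA entries removed and -0.0145 with no filter on low counts. In IR over time, Fmod was -0.50 without the 6 libraries and Ogn -0.12 with quality weights. In DR over time, Scx was -0.23, Fmod -0.071 and Lum -0.062 without the 6 libraries, and Dcn 0.13 with limma-voom and 0.47 with quality weights. Pooled over drying, Scx was -0.040, Fmod -0.29 and Dcn -0.11 without the 6 libraries. For the difference between drying effects, Scx was 0.35 with quality weights, and Fmod -0.16 with limma-voom and -0.35 with quality weights.

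With the replicate block, no call of a member changed. The block over 24 libraries gave Postn 0.36, Aspn 0.16 and Fmod 0.28 for DR over IR at day 3, Aspn -0.041 and Fmod -0.27 for the difference of drying effects, and 1197 genes called for day 7 over day 3 pooled. Of the 8 listed genes called there, the block left 3 past the threshold, Col1a2, Loxl1 and Ltbp3, while Smad4 (edgeR adjusted p = 0.0508), Bgn (0.0592), Col1a1 (0.0693), Sparc (0.0770) and Bmp1 (0.0871) missed it; numbers did not pair libraries between days. The block over the 12 day 3 libraries gave Fmod 0.15. In the paired fit of day 7 alone, Dcn stood at -0.36 (SE 0.123, edgeR adjusted p = 0.680).

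With single libraries left out, these uncalled values spanned 0. For DR over IR at day 3 they were Aspn (-0.29 to 0.29), Fmod (-0.59 to 0.41), Lum (-0.34 to 0.75), Postn (-0.55 to 0.73), Scx (-0.36 to 0.23) and Tgfbi (-0.34 to 0.82). At day 7 they were Aspn (-0.10 to 0.49), Fmod (-0.11 to 0.19) and Tnmd (-0.31 to 0.036). For the difference of drying effects they were Aspn (-0.16 to 0.56), Fmod (-0.38 to 0.62), Postn (-0.96 to 0.32), Scx (-0.45 to 0.14) and Tgfbi (-1.10 to 0.07). In DR over time it was Dcn (-0.16 to 0.14). Depth limits Tnmd and Scx most, with counts as low as 1 and 3 per library.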
